A study of Mus musculus with 2 samples.

Results

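Cd209a cells of the mouse kidney are described here: leukocytes with the transcript of the lectin Cd209a, with MHC class II transcripts, and with little of the macrophage gene C1qa. They numbered 402 of the 6601 cells that passed the filters. A cell was a member when it held at least 2 unique molecular identifiers (UMIs, the tags that count captured RNA molecules) of Cd209a, less than 10 UMIs of C1qa per 10,000 UMIs of the cell, and at least 20 UMIs of the MHC class II gene H2-Aa per 10,000. It also had to hold 0 UMIs of Cd3e, a gene of the T cell receptor complex, of Xcr1, the chemokine receptor of type 1 dendritic cells, and of Ccr7, the receptor of dendritic cells on their way to lymph nodes. These 6 genes chose the members from the same RNA that is described below, so their values are descriptions and support nothing.

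Dendritic cells take up material in tissues, present its peptides on MHC molecules and instruct T cells. Conventional dendritic cells form a pair of lineages: type 1, which depends on Irf8 and Batf3 and is known for presenting engulfed antigen to CD8 T cells, and type 2, which depends on Irf4 and is known for presenting antigen to CD4 T cells. In the kidney they sit in the interstitium among far more numerous resident macrophages, with which they share many surface proteins, and monocytes that enter an inflamed kidney can take on dendritic features, Cd209a among them.

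The cells came from kidneys of B6 mice, a common inbred strain, with aristolochic acid nephropathy (given in the labels as AAN CKD), a chronic kidney disease caused by a plant toxin, at week 2. Kidney tissue was digested with the collagenase mixture Liberase, and viable cells that carried the leukocyte protein CD45 were sorted and captured for 3' Chromium sequencing. The single GEO sample held 2 hashed samples, told apart by antibody-borne barcodes, which were captured in a single run. Whether they are separate animals is not settled: the names of the deposited matrices carry m1 and m2, while the sample title names mouse 1 alone. The title also names W1, whereas the time label says Week 2. All groups compared below are cell classes of these same diseased kidneys, with no untreated kidney among them. The organism label and all gene identifiers are mouse, whereas the protocol mentions kidneys of humans and another label calls the cells mesenchymal stem cells, which goes against the CD45 sort. The kidney section of the series profiled by Visium was not analysed here.

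With 1 GEO sample no difference has a replicate behind it, so differences were not tested and carry no p-values. Where a pair of values is printed, the first belongs to hashed sample 1 and the second to hashed sample 2. Intervals are exact 95% intervals and cover counting error only. A limit given for a count of 0 was read from 3 counts instead and is somewhat tighter than an exact interval. Of 7015 barcodes, none shared by both hashed samples, 414 were removed, and 3115 and 3486 cells remained, with 20320954 and 24848027 UMIs. Every remaining cell had its own hashed sample's tag as its highest tag.

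Cd209a cells made up 4.24% (3.56 to 5.01) of cells in hashed sample 1, 132 cells, and 7.75% (6.88 to 8.68) in hashed sample 2, 270 cells. In a sort with a single capture such shares also reflect digestion and gating. The median member held 8626 and 9399.5 UMIs from 2381 and 2532 genes, of which 1.53% and 1.55% were mitochondrial UMIs. Members were set beside 1020 and 1529 C1qa cells, which had at least 40 UMIs of C1qa per 10,000, and beside 41 and 71 Xcr1 cells, which had at least 1 UMI of Xcr1. The median depth was 6249 and 6860 UMIs in C1qa cells and 9366 and 10723 UMIs in Xcr1 cells. T cells, with at least 2 UMIs of Cd3e and little C1qa (342 and 167 cells, median depth 5470.5 and 4057 UMIs), served to show how much RNA of a gene lies in cells that should lack it.

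The median member held 4 and 5 UMIs of Cd209a, and the highest held 19 and 29. H2-Aa had a median of 139 and 128 UMIs per 10,000 in members, and C1qa of 1.13 and 0.920. Of the 495 filtered cells with at least 2 UMIs of Cd209a, 81.2% were members. Too much C1qa kept 74 of the others out, Ccr7 kept out 11, Cd3e 5, H2-Aa 4 and Xcr1 3, with some cells failing more than 1 condition. Just outside the Cd209a threshold lay 50 and 50 cells that met every other condition with 1 UMI of Cd209a. Ccl17 stood at 2480 and 2118 CPM (the UMIs of a gene in all cells of a class, scaled to the same total of UMIs for every class) in those cells, and H2-DMb2 at 281 and 232 CPM. Just inside lay 36 and 46 members with exactly 2 UMIs, with Ccl17 at 2905 and 3197 CPM and H2-DMb2 at 235 and 234 CPM. Cells on both sides of the Cd209a threshold thus held both transcripts. A further 242 and 249 cells met the other conditions with 0 UMIs of Cd209a, and Ccl17 was also high there, at 1917 and 1652 CPM, with H2-DMb2 at 109 and 117 CPM. Both transcripts were thus present in cells without Cd209a. Apoe, a macrophage gene, stood at 3988 and 3322 CPM in these cells, against 636 and 1181 CPM in the members with exactly 2 UMIs. Between 10 and 20 UMIs of C1qa per 10,000, just outside the limit, were 11 and 25 cells with Ccl17 at 1552 and 720 CPM, and between 5 and 10, just inside, were 17 and 23 members with Ccl17 at 991 and 1288 CPM. At the H2-Aa limit, 0 and 3 members held 20 to 50 UMIs per 10,000, and 2 and 1 cells were left out below it.

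The markers given with the class were Cd209a, which encodes a relative of the human pathogen receptor DC-SIGN, H2-DMb2, a chain of the H2-DM complex that exchanges peptides on MHC class II, Klrd1, the CD94 chain of natural killer (NK) cell lectin receptors, and Ccl17, a chemokine that draws T cells carrying Ccr4. Ccl17 stood at 2806 and 2780 CPM in members, at 42.4 and 39.7 CPM in C1qa cells and at 718 and 528 CPM in Xcr1 cells. Members thus exceeded C1qa cells 66.2-fold (58.7 to 74.9) and 69.97-fold (63.5 to 77.2). They exceeded Xcr1 cells 3.91-fold (3.46 to 4.44) and 5.26-fold (4.76 to 5.83) in these summed levels. Per cell the gap was wider: the median was 13.3 and 13.7 UMIs per 10,000 in members and 1.16 and 0 in Xcr1 cells, of which 41.5% and 53.5% held no Ccl17. H2-DMb2 stood at 294 and 382 CPM in members, 8.94 and 9.55 CPM in C1qa cells and 130 and 103 CPM in Xcr1 cells. Klrd1 stood at 117 and 147 CPM in members, 1.61 and 1.80 CPM in C1qa cells and 46.8 and 39.1 CPM in Xcr1 cells. All 3 genes were lowest in C1qa cells and highest in members in both hashed samples, with Xcr1 cells between.

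Shares of cells with a UMI were compared after random thinning of every cell to 2000 UMIs. No member was shallower than that, but 64 and 83 C1qa cells, 1 and 1 Xcr1 cells and 6 and 6 T cells were, and were left out. Ccl17 was detected in 73.5% (65.1 to 80.8) and 70.7% (64.9 to 76.1) of thinned members, and in 89.4% and 84.8% before thinning. In thinned T cells it was detected in 3.27% and 1.24%, which sets the level of background. H2-DMb2 was detected in 40.2% and 51.9% of thinned members and 2.08% and 0.621% of T cells, and in 79.5% and 87.0% of members before thinning. Klrd1 was detected in 15.2% and 20.4% of thinned members, and in 37.9% and 50.4% before thinning. Some T cells use Klrd1 themselves, so their share of 6.85% and 11.2% is no background, and in thinned C1qa cells it was detected in 0.209% and 0.415%.

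The label was checked against 12 general markers of type 2 dendritic cells. Of the 9 that were measured (at least 50 CPM in members or the class compared, in each hashed sample), 5 were higher than in C1qa cells by at least 1.5-fold in both hashed samples, and 2, Clec12a and Clec4a2, were lower, Clec4a2 only when classes were scaled by total UMIs and not by TMM factors. The median log2 ratio over the 9 was 1.59 and 1.13, beside -0.08 and -0.08 over all 2747 genes measured. In that comparison 9.46% of all genes measured were higher and 13.7% lower. Mgl2, a lectin for galactose-type sugars, stood at 2206 and 3039 CPM in members, 261 and 590 CPM in C1qa cells and 62.4 and 167 CPM in Xcr1 cells. In Xcr1 cells a single cell held 18 of its 24 UMIs in hashed sample 1 and 98 of 128 in hashed sample 2. Irf4, the transcription factor of the lineage, stood at 54.5 and 78.8 CPM and in C1qa cells at 5.72 and 5.68 CPM, a 9.53-fold (6.30 to 14.6) and 13.9-fold (10.4 to 18.7) difference. Against Xcr1 cells, 7 of the 9 were higher and none lower. There the median was 2.10 and 2.97, beside 0.02 and 0.05 over all 2557 genes measured, of which 12.3% were higher and 8.21% lower. Sirpa, an inhibitory receptor shared by type 2 dendritic cells and macrophages, was at 211 and 212 CPM in members, 281 and 342 CPM in C1qa cells and 41.6 and 18.3 CPM in Xcr1 cells. Esam, which marks a splenic subset, had 0 UMIs in members.

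Of the genes shared by dendritic cell types, 3 of 3 measured were higher in members than in C1qa cells, but 4 of 5 (Flt3, Dpp4, Kit and Id2) were lower than in Xcr1 cells, with a median log2 ratio of -1.18 and -1.33. Zbtb46, a transcription factor of conventional dendritic cells, was too low to count as measured, at 24.7 and 30.8 CPM in members, 1.03 and 0.180 CPM in C1qa cells and 18.2 and 44.3 CPM in Xcr1 cells. Flt3, the receptor of the dendritic cell growth factor, stood at 16.2 and 12.9 CPM in members, 2.49 and 0.721 CPM in C1qa cells and 143 and 117 CPM in Xcr1 cells. After thinning it was detected in 4.55% and 2.22% of members, beside 0% (which allows up to 0.893%) and 0.621% of T cells and 22.5% and 21.4% of Xcr1 cells. Members thus held far less Flt3 than Xcr1 cells in both hashed samples. Of 5 classical monocyte genes measured, 2 were higher than in C1qa cells (S100a4 and Ifitm6) and 2 lower (F13a1 and Fn1), and 4 were higher and 1, Plac8, lower than in Xcr1 cells. Ccr2, a monocyte gene and the receptor with which monocytes leave the bone marrow, was at 781 and 905 CPM in members, at 470 and 631 CPM in C1qa cells (higher by the fold rule only with TMM scaling) and at 260 and 535 CPM in Xcr1 cells. Ly6c2, Vcan and Hp, defining genes of classical monocytes, had 0 UMIs in members of hashed sample 1 and 3, 10 and 3 UMIs in members of hashed sample 2. The whole list of 11 summed to 2904 and 3078 CPM in members, 1462 and 1669 CPM in C1qa cells and 1061 and 1059 CPM in Xcr1 cells, and S100a4 and Ccr2 gave most of the sum in members. The patrolling monocyte list summed to 629 and 611 CPM in members, 83.7 and 97.8 CPM in C1qa cells and 138 and 95.2 CPM in Xcr1 cells, nearly all of it Ear2 in members. Whether cells of monocyte origin are among the members was not tested.

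**Figure D1:**
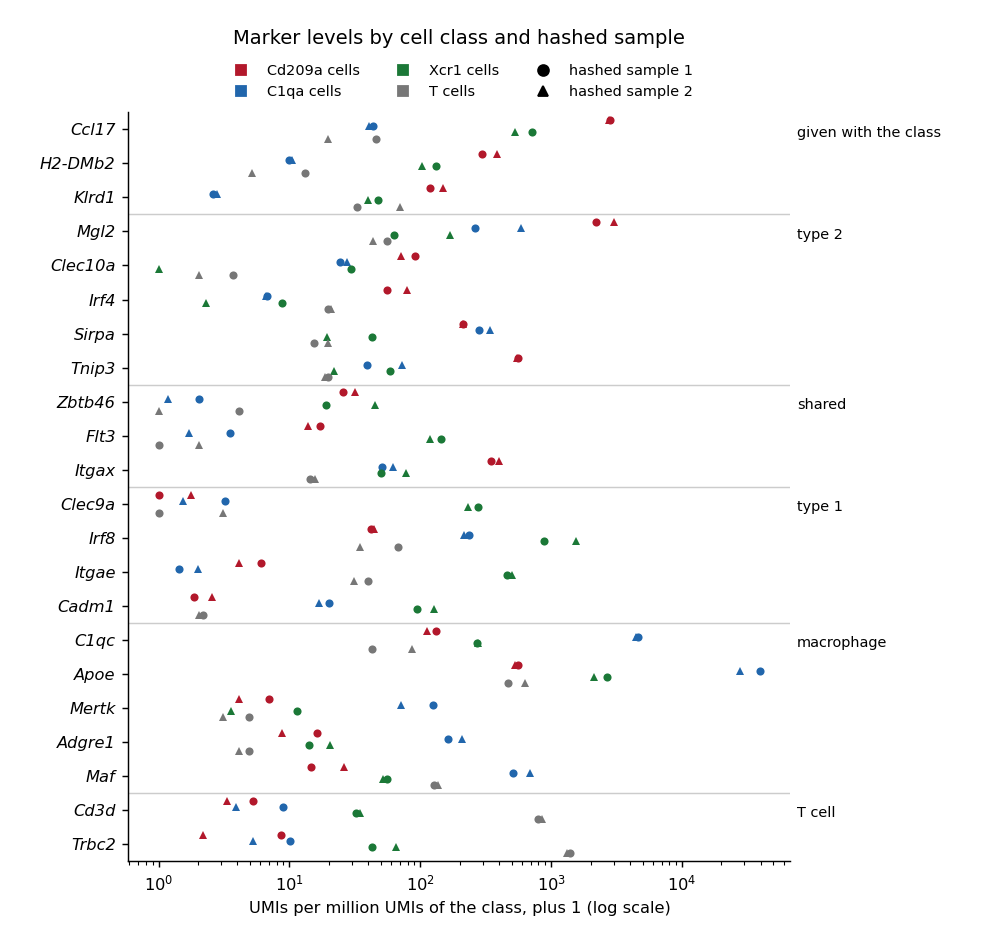
Levels of 22 marker genes in CPM, plus 1, on a log scale, for Cd209a, C1qa, Xcr1 and T cells (colours) in hashed sample 1 (circles) and 2 (triangles), 1 summed value per class and hashed sample, with no error bars. Ccl17, H2-DMb2, Klrd1, Mgl2, Irf4 and Tnip3 lie furthest to the right in Cd209a cells, Clec9a, Irf8, Itgae and Cadm1 in Xcr1 cells, and C1qc, Apoe and Mertk in C1qa cells.

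Of 16 resident macrophage genes measured, 15 were lower than in C1qa cells, and the median log2 ratio was -2.87 and -3.42. Their low levels accompany a rule that kept C1qa low. The whole list summed to 2381 and 2299 CPM in members, 58579 and 47242 CPM in C1qa cells, 4054 and 3611 CPM in Xcr1 cells and 975 and 1265 CPM in T cells. Per cell, the median was 18.0 and 17.1 UMIs per 10,000 in members and 8.12 and 8.30 in Xcr1 cells, so members lay below Xcr1 cells by the sum and above them by the median. Among the Xcr1 cells, 5 were also C1qa cells. The Xcr1 cell with most Apoe held 291 and 409 UMIs of it, beside a median of 3 and 4. The part of such cells in the sum was not tested. Apoe, a lipid carrier, stood at 555 and 533 CPM in members and at 466 and 632 CPM in T cells, so that its level in members was close to that of cells that should lack it. C1qb stood at 514 and 399 CPM in members, above the 110 and 167 CPM of T cells. The T cell list summed to 40.9 and 33.1 CPM in members, against 4595 and 4645 CPM in T cells. Proximal tubule genes summed to 68.1 and 87.3 CPM in members and 78.9 and 137 CPM in T cells, and neutrophil genes to 0 and 3.12 CPM in members.

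Against C1qa cells, 260 genes were higher in members and 375 lower, so that 40.9% of the called genes were higher. With TMM factors, which rest on the bulk of genes, the counts were 321 and 290, or 52.5% higher, and the median log2 ratio of all genes moved from -0.09 to 0.03. No gene differed by 1.5-fold in opposite directions in the hashed samples, and the ratio's sign matched between them for 85.4%. After Ccl17, H2-DMb2 and Klrd1, the genes highest in members over C1qa cells by a fixed ranking included Fgfr1, a receptor of fibroblast growth factors, at 204 and 181 CPM against 6.60 and 9.91 CPM. H2-Oa, which restrains H2-DM, stood at 123 and 106 CPM against 1.47 and 2.16 CPM. Napsa, an aspartic protease, stood at 818 and 804 CPM against 83.1 and 65.0 CPM. Bhlhe40, a transcription factor, stood at 354 and 365 CPM in members, 29.5 and 27.0 CPM in C1qa cells and 59.8 and 59.99 CPM in Xcr1 cells. These genes divide by whether Xcr1 cells held them too: Cd24a (117 and 149 CPM in members, 177 and 205 CPM in Xcr1 cells), Itgb7, Cbfa2t3 and H2-Oa (192 and 158 CPM in Xcr1 cells) were at higher levels in Xcr1 cells, without passing the fold rule in both hashed samples. Fgfr1 and Napsa were also present there, at 107 and 91.3 CPM and at 541 and 535 CPM. Tnip3, an inhibitor of NF-kappaB signalling, was not among those, at 558 and 550 CPM in members and 57.2 and 20.9 CPM in Xcr1 cells. Ear2, a ribonuclease of the eosinophil family also used by patrolling monocytes, likewise stood at 597 and 581 CPM in members, 57.6 and 64.4 CPM in C1qa cells and 80.6 and 32.6 CPM in Xcr1 cells. In Xcr1 cells of hashed sample 1, a single cell held 16 of 22 Tnip3 UMIs and a single cell 21 of 31 Ear2 UMIs.

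The genes lowest in members against C1qa cells were led by Apoe, at 39677 and 27674 CPM in C1qa cells, which was 71.4-fold (66.2 to 77.3) and 51.9-fold (49.2 to 54.8) above members. Pf4, a platelet-type chemokine of kidney macrophages, stood at 666 and 1250 CPM in C1qa cells and 11.9 and 13.3 CPM in members. C1qc, Ms4a7, Maf, Stab1, Selenop, F13a1, Rnase4 and C5ar1 followed, together with the monocyte-attracting chemokines Ccl8 and Ccl12. Maf, a transcription factor of mature macrophages, stood at 508 and 684 CPM in C1qa cells and 13.6 and 24.96 CPM in members. Of 5 pattern recognition genes measured 3 were lower (Tlr7, Tlr13 and Cd14), Cd14 only when scaled by total UMIs, and 3 of 4 measured were higher than in Xcr1 cells. Tlr7, a sensor of single-stranded RNA, stood at 0.852 and 1.95 CPM in members, 109 and 80.5 CPM in C1qa cells and 7.80 and 6.52 CPM in Xcr1 cells.

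Against Xcr1 cells, 314 genes were higher in members and 210 lower. The hashed samples were less alike here: the sign matched for 76.2%, and 1 gene, Nop58, which was singled out by this count, differed by 1.5-fold in opposite directions. Behind Mgl2, the highest by the ranking was Mmp12, a macrophage elastase, at 589 and 615 CPM in members and 23.4 and 14.3 CPM in Xcr1 cells. S100a4, a calcium-binding protein of motile cells, stood at 1930 and 1892 CPM against 169 and 96.5 CPM. Il1rl1, the receptor of the alarmin IL-33, stood at 107 and 117 CPM in members, 3.37 and 9.73 CPM in C1qa cells and 0 and 3.91 CPM in Xcr1 cells. Members thus exceeded Xcr1 cells at least 13.8-fold in Il1rl1 in hashed sample 1, where 0 UMIs were read as the 3 counts that a count of 0 allows, and 29.8-fold (10.1 to 145) in hashed sample 2. Tmem176a, Tmem176b, Cfp, Ccl9, Tnfsf9 and Il1b were the others. Among the lowest, Ifi205 stood at 3.41 and 3.51 CPM in members and 687 and 527 CPM in Xcr1 cells. Itgae, the CD103 integrin, stood at 5.11 and 3.12 CPM against 460 and 498 CPM. Clec9a, a receptor for dead cells, stood at 0 and 0.780 CPM against 273 and 230 CPM. All 9 type 1 dendritic cell genes measured were lower in members, with a median log2 ratio of -3.26 and -3.56. Irf8 stood at 40.9 and 43.3 CPM in members and 887 and 1560 CPM in Xcr1 cells, 21.7-fold (16.0 to 30.0) and 36.0-fold (29.6 to 44.2) higher. It was also lower in members than in C1qa cells, at 234 and 213 CPM there.

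**Figure D2:**
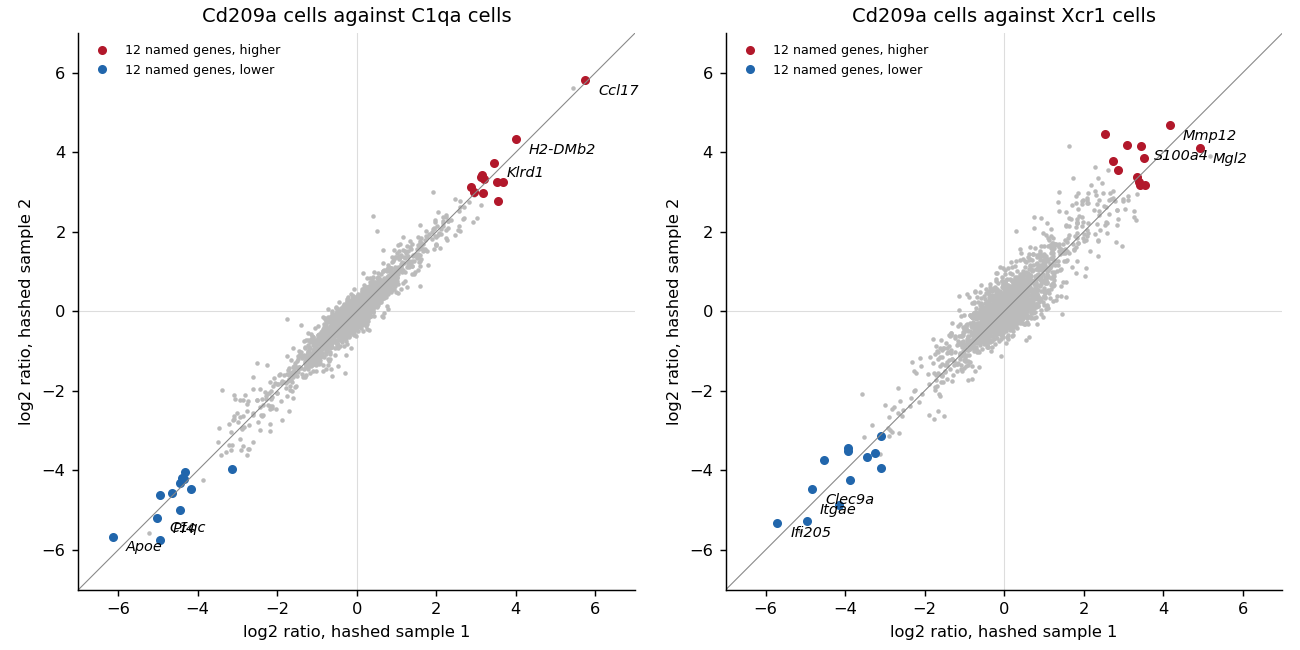
Each grey point is a gene measured in a comparison, placed by its log2 ratio of Cd209a cells over C1qa cells (left, 2747 genes) or over Xcr1 cells (right, 2557 genes) in hashed sample 1 (x axis) and hashed sample 2 (y axis), and the coloured points are the 12 named genes in each direction. Points gather along the diagonal, with Ccl17 at 5.75 and 5.81 and Apoe at -6.13 and -5.67 at the ends of the left panel.

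Genes of antigen presentation on MHC class II were higher in members than in C1qa cells in 7 of 8 cases measured, with a median log2 ratio of 1.07 and 1.45. The rule's use of H2-Aa favours such values. Each count of list genes can be set against the shares over all genes measured. These were 9.46% higher and 13.7% lower than in C1qa cells, and 12.3% higher and 8.21% lower than in Xcr1 cells. Cd74, the invariant chain that guards the groove, stood at 32556 and 33390 CPM in members, 17536 and 14005 CPM in C1qa cells and 23885 and 23745 CPM in Xcr1 cells. Ciita, the master regulator of these genes, stood at 321 and 307 CPM in members, 70.8 and 74.0 CPM in C1qa cells and 263 and 280 CPM in Xcr1 cells. The H2-DM and H2-O genes did not share a pattern. H2-DMb1, the sister of H2-DMb2, was at 738 and 762 CPM in members, 553 and 487 CPM in C1qa cells and 983 and 988 CPM in Xcr1 cells. It passed the fold rule in neither comparison, whereas H2-DMb2 passed in both. H2-Ob, the partner of H2-Oa, was at 29.0 and 35.9 CPM in members and 98.8 and 119 CPM in Xcr1 cells, and was the single class II gene lower in members than in Xcr1 cells. H2-DMb1 and H2-DMb2 are near copies, and reads that fit both can be lost or shared.

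MHC class I presentation differed mainly from Xcr1 cells, in which Tap1, Tap2, Psmb8 and Psmb9 were higher. Psmb9, a subunit of the immunoproteasome that cuts peptides for MHC class I, stood at 105 and 113 CPM in members and 369 and 398 CPM in Xcr1 cells. Tap1, a subunit of the peptide pump, stood at 63.0 and 68.2 CPM against 213 and 194 CPM. Among cathepsins and other lysosomal genes, many of which cut proteins into peptides for MHC class II, 9 of 16 were lower than in C1qa cells (Lamp2 only when scaled by total UMIs), and 9 of 16 were higher than in Xcr1 cells. Ctsa, Ctsc, Ctsd, Ctsl, Lamp1 and Lamp2 were in both counts. Ctsd stood at 187 and 204 CPM in members, 758 and 749 CPM in C1qa cells and 88.4 and 58.7 CPM in Xcr1 cells. Cst3, which inhibits cathepsins and marks dendritic cells, stood at 8279 and 7917 CPM in members, 3247 and 3347 CPM in C1qa cells and 24096 and 27361 CPM in Xcr1 cells.

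Sequence upstream of H2-DMb2, of H2-DMb1 and of H2-Oa is shown because the 3 genes act on the same peptide exchange. H2-DMb2 and H2-Oa, but not H2-DMb1, passed the fold rule against C1qa cells. Windows from 250 bases before to 50 bases after each gene's start in a RefSeq table (GRCm38.p6) were searched on both strands for CCAAT, the box of MHC class II promoters, which 37.4% of all 32851 promoters of the table hold. Each line gives 30 bases 5′ to 3′ on the gene's strand, with ATTGG, the reverse complement of CCAAT, in capitals.
H2-DMb2: agtcacttagtgATTGGactgacttaacta
H2-DMb1: attcactcagtgATTGGtctgacctgccta
H2-Oa: agaactgctctgATTGGctgcttaccgcaa
The stretches lie on chromosome 17, plus strand, at chr17:34145147-34145176, chr17:34153118-34153147 and chr17:34092324-34092353. Bases of the match lay 90 to 86 before the start in H2-DMb2, 61 to 57 before it in H2-DMb1 and 43 to 39 before it in H2-Oa. The table's start of H2-DMb2 lies inside the annotated gene. The genes that passed the fold rule against C1qa cells and the one that did not pass it thus all held a match, which is a description of letters, not of binding.

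Costimulation genes were mixed. Tnfsf9, the 4-1BB ligand, stood at 225 and 216 CPM in members, 32.6 and 49.3 CPM in C1qa cells and 13.002 and 11.7 CPM in Xcr1 cells. Cd86, a ligand of CD28, stood at 50.3 and 67.5 CPM in members and 153 and 136 CPM in Xcr1 cells. Havcr2, which encodes TIM-3, stood at 24.7 and 13.6 CPM in members and 195 and 136 CPM in Xcr1 cells. Of 4 genes measured, 1 was higher and 2 lower in each comparison, too few to set against the shares over all genes.

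Chemokine calls differed between the comparisons. Against C1qa cells 3 of 14 were higher (Ccl17, Ccl9 and Ccl4) and 6 lower (Ccl2, Ccl7, Ccl8, Ccl12, Cxcl9 and Cxcl16), while Ccl5 counted as higher only with TMM scaling. Over all genes measured there, 9.46% were higher and 13.7% lower. Against Xcr1 cells 7 of 10 were higher and Ccl5 and Cxcl9 lower, beside 12.3% higher and 8.21% lower over all genes. Ccl2, the main ligand of Ccr2, stood at 168 and 293 CPM in members, 573 and 914 CPM in C1qa cells and 20.8 and 57.4 CPM in Xcr1 cells. Cxcl9, which draws Cxcr3-bearing T cells, stood at 16.2 and 7.02 CPM in members, 212 and 63.6 CPM in C1qa cells and 213 and 249 CPM in Xcr1 cells. Among receptors, Cxcr3 itself stood at 0 and 0.390 CPM in members and 75.4 and 80.9 CPM in Xcr1 cells. Ccr1 and Ccr2 were higher in members than in Xcr1 cells.

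Cytokine genes included Il1b, the precursor of interleukin 1 beta, at 863 and 1123 CPM in members, 221 and 260 CPM in C1qa cells and 140 and 41.7 CPM in Xcr1 cells. Tnf stood at 60.5 and 110 CPM in members, 22.9 and 26.9 CPM in C1qa cells and 2.60 and 5.22 CPM in Xcr1 cells. Immediate-early and heat shock genes, which tissue digestion can induce, were high in members as well. Of 15 on the list, 10 were higher in members than in C1qa cells and 11 higher than in Xcr1 cells, and none was lower. The median log2 ratio was 0.86 and 0.95 over C1qa cells and 1.11 and 1.65 over Xcr1 cells. Egr1 was higher than in C1qa cells only with TMM scaling, as was Hspa1b against Xcr1 cells. Dusp1, a phosphatase induced early after stimulation, stood at 767 and 869 CPM in members, 284 and 319 CPM in C1qa cells and 203 and 137 CPM in Xcr1 cells. Zfp36, which destabilises cytokine transcripts, stood at 787 and 889 CPM in members, 315 and 335 CPM in C1qa cells and 250 and 239 CPM in Xcr1 cells. Their part in the cytokine and chemokine values was not tested.

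NK-type lectin receptors were higher in members than in C1qa cells in 3 of 3 genes measured. Klrb1b, an inhibitory receptor, stood at 116 and 137 CPM in members, 7.62 and 11.8 CPM in C1qa cells and 7.80 and 33.9 CPM in Xcr1 cells. Klrk1, the activating receptor NKG2D, stood at 76.7 and 78.4 CPM in members, 4.25 and 2.79 CPM in C1qa cells and 216 and 124 CPM in Xcr1 cells. Defining NK cell genes were mostly near 0: in hashed sample 2, Ncr1, Klrb1c, Prf1, Eomes and Klra8 had 0 UMIs in members. In hashed sample 1, all 157 UMIs of Gzma came from 1 member, which also held 39 of Gzmb, 10 of Prf1 and 3 of Ncr1. The NK list summed to 234 CPM in hashed sample 1, that cell included, and 79.9 CPM in hashed sample 2, beside 5.43 and 3.69 CPM in C1qa cells and 216 and 130 CPM in Xcr1 cells. Klrk1 is on this list and gave 78.4 of the 79.9 CPM in members of hashed sample 2. In Xcr1 cells it gave all 216 CPM in hashed sample 1 and 124 of 130 CPM in hashed sample 2. Klrd1 was detected in 50 and 136 members, and the member with most Klrd1 held 13 and 14 UMIs. The part of NK cells in the Klrd1 level was not tested.

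Transcription factors measured numbered 18 in each comparison. Against C1qa cells 7 were higher (Irf4, Irf5, Klf4, Rel, Id2, Etv3 and Bhlhe40) and 5 lower, among them Irf8, Zeb2, Maf and Cebpb, Zeb2 only when scaled by total UMIs, and Runx3 was higher only with TMM scaling. Klf4, which a subset of type 2 dendritic cells requires, stood at 343 and 439 CPM in members, 176 and 144 CPM in C1qa cells and 88.4 and 86.1 CPM in Xcr1 cells. Id2, an inhibitor of E proteins used by dendritic cells, stood at 540 and 484 CPM in members, 112 and 96.6 CPM in C1qa cells and 1233 and 1235 CPM in Xcr1 cells. Zeb2 stood at 374 and 410 CPM in members, 566 and 624 CPM in C1qa cells and 88.4 and 54.8 CPM in Xcr1 cells. Irf4 and Bhlhe40 were higher in members than in both other classes, Id2 lay between them, and Irf8 was lowest in members.

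Cytokine and growth factor receptors included Il13ra1, a chain of the IL-4 and IL-13 receptors, at 94.5 and 75.3 CPM in members, 46.3 and 40.9 CPM in C1qa cells and 36.4 and 37.8 CPM in Xcr1 cells. Il18rap, a chain of the IL-18 receptor, stood at 105 and 79.5 CPM in members, 9.53 and 11.8 CPM in C1qa cells and 7.80 and 2.61 CPM in Xcr1 cells. Both of these exceeded the other classes in both hashed samples, like Il1rl1. Csf1r, the receptor of the macrophage growth factor, stood at 148 and 156 CPM in members, 759.99 and 723 CPM in C1qa cells and 52.0 and 63.9 CPM in Xcr1 cells. The interferon and TGF-beta receptor genes Ifnar1, Ifnar2, Tgfbr1 and Tgfbr2 were lower than in C1qa cells, and Ifngr2 was lower only when scaled by total UMIs.

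Uptake genes were lower in members than in C1qa cells in 8 of 10 cases, with a median log2 ratio of -2.78 and -2.74. Against Xcr1 cells it was the other way, with 4 of 5 measured higher and a median of 1.73 and 1.68. Mertk, a receptor for dying cells, stood at 5.96 and 3.12 CPM in members, 124 and 70.8 CPM in C1qa cells and 10.4 and 2.61 CPM in Xcr1 cells. Mfge8, a bridge to dying cells, went the other way, at 63.0 and 72.9 CPM in members, 17.6 and 21.8 CPM in C1qa cells and 10.4 and 7.82 CPM in Xcr1 cells. Fcgr1, the IgG receptor CD64 that marks macrophages, stood at 29.0 and 31.6 CPM in members, 227 and 241 CPM in C1qa cells and 26.0 and 5.22 CPM in Xcr1 cells. In Xcr1 cells of hashed sample 1, only 3 cells held Fcgr1, and a single cell held 8 UMIs of it. Of 7 Fc receptor genes 5 were lower than in C1qa cells, Fcer1g only when scaled by total UMIs, and 3 of 4 measured were higher than in Xcr1 cells. Genes of S100 proteins, annexins and the actin skeleton were higher than in C1qa cells in 9 of 11 cases, with a median of 1.16 and 1.07. S100a6 stood at 1935 and 1639.7 CPM in members, 496 and 547 CPM in C1qa cells and 273 and 232 CPM in Xcr1 cells.

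**Figure D3:**
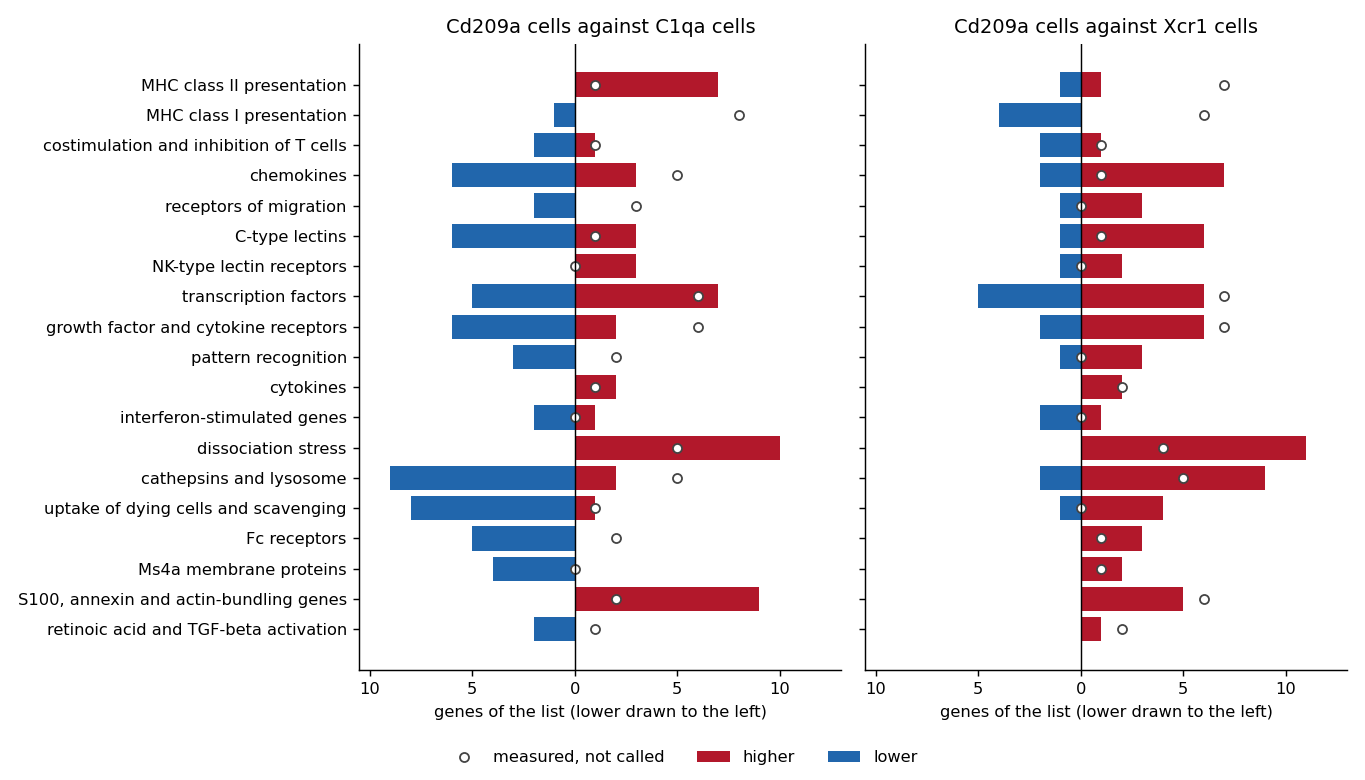
Number of genes of each of 19 functional lists that were higher (red, to the right) or lower (blue, to the left) in Cd209a cells than in C1qa cells (left) or Xcr1 cells (right) at 1.5-fold in both hashed samples; the open circle gives the number measured but not called. MHC class II, S100 and stress genes extend to the right against C1qa cells, where uptake and cathepsin genes extend to the left.

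The Cd209 family forms a cluster on chromosome 8 (GRCm38), with Cd209a at chr8:3743395-3748984 followed by Cd209e, Cd209d, Cd209b and Cd209c up to 3954746. Its proteins are lectins that bind sugars of microbes and of glycoproteins. Any of Cd209b, Cd209c, Cd209d or Cd209e was detected in 47 of 132 members, 35.6% (27.5 to 44.4), and in 132 of 270, 48.9% (42.8 to 55.0). C1qa cells held such a UMI in 0.588% and 0.916% of cells and T cells in 0.585% and 0% (0 of 167, which allows up to 1.80%). In Xcr1 cells it was found in 2 of 41 and in 0 of 71, which allows up to 4.23%. Cd209d gave 36 and 144 UMIs in members, from 19 and 65 cells, and Cd209c 34 and 80 UMIs from 25 and 65 cells. Cd209b gave 5 and 28 UMIs and Cd209e 6 and 26, while Cd209f and Cd209g gave 0. The relatives summed to 65.7, 74.8 and 63.2 CPM in members of hashed sample 1 with 2, with 3 to 5 and with at least 6 UMIs of Cd209a, and to 89.1, 126 and 102 CPM in hashed sample 2. Members were chosen on Cd209a, so these steps are a description. Near-identical copies can share reads.

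**Figure D4:**
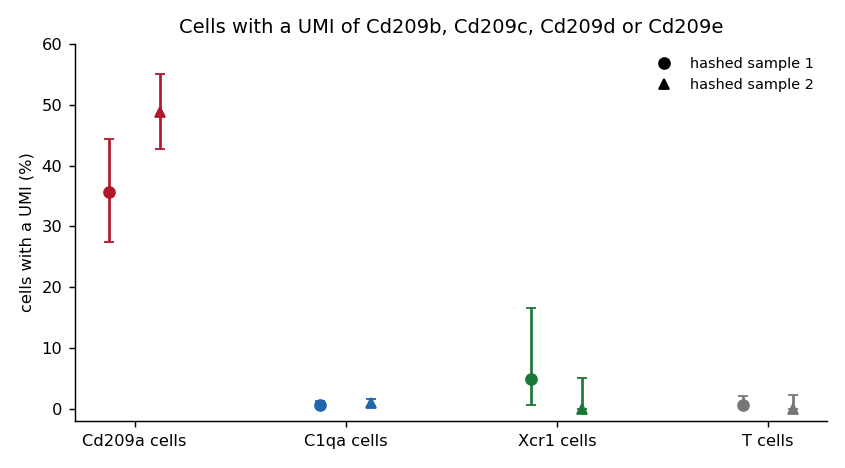
Percentage of cells with at least 1 UMI of Cd209b, Cd209c, Cd209d or Cd209e in 4 cell classes, without thinning, in hashed sample 1 (circles) and 2 (triangles), with exact 95% intervals that cover counting error only. Cd209a cells stand at 35.6% and 48.9%, and the other classes below 5%.

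Letters around the starts of Cd209a, Cd209d and Cd209e are shown because they share a match to the composite motif of ETS and IRF factors such as PU.1 and IRF4, searched on both strands as GGAA, any 2 bases and GAAA, which 2.72% of the 32851 promoter windows hold. Its reverse complement is in capitals, and each line gives 30 bases 5′ to 3′ on the gene's strand, the minus strand.
Cd209a: cacttctcaaTTTCTCTTCCtaagtaagat
Cd209d: cagttcctttTTTCTCTTCCtatcagaatg
Cd209e: aagttccttgTTTCTCTTCCtaagaaagag
These stretches lie at chr8:3748974-3749003, chr8:3878550-3878579 and chr8:3854352-3854381. The match runs over the start itself in Cd209a and lies 70 to 61 bases before it in Cd209d and 85 to 76 before it in Cd209e. The start used for Cd209d lies inside the annotated gene, unlike those of Cd209a and Cd209e, so its distance is not comparable with theirs. The match was not particular to Cd209 genes: Klrk1 held it too, 43 to 34 bases before its start. Klrk1 stood at 76.7 and 78.4 CPM in members and at 216 and 124 CPM in Xcr1 cells. The windows of Cd209b, Cd209c, Ccl17, Irf4 and Mgl2 held no match, which says only that these letters are absent there. Cd209c was detected in as many members as Cd209d in hashed sample 2 without one.

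Ccl17 varied widely among members. It was at 0 in 14 and 41 members, had a median of 13.3 and 13.7 UMIs per 10,000, and reached 188 and 423 UMIs in a single cell. At least 100 UMIs were found in 10 and 13 members. The 14 and 27 members with most Ccl17 UMIs held 51.0% and 46.8% of all Ccl17 UMIs of the class. Without the cell highest in Ccl17 the level was 2672 and 2643 CPM. Ccl22, the other ligand of Ccr4, was detected in 11 and 36 members, whose median Ccl17 was 36.7 and 47.8 UMIs per 10,000, against 11.9 and 10.0 in members without Ccl22. Those with Ccl22 were also deeper, at 9363 against 8577 UMIs and at 10864 against 9172.5. Klrd1 marked no such difference: members with it had a median Ccl17 of 13.6 and 13.5 UMIs per 10,000 and members without it 12.8 and 13.9. Members with H2-DMb2 had a median Ccl17 of 16.4 and 14.5, and the 27 and 35 members without it 2.52 and 5.39, at median depths of 9036 against 7745 and 9563 against 8445 UMIs.

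**Figure D5:**
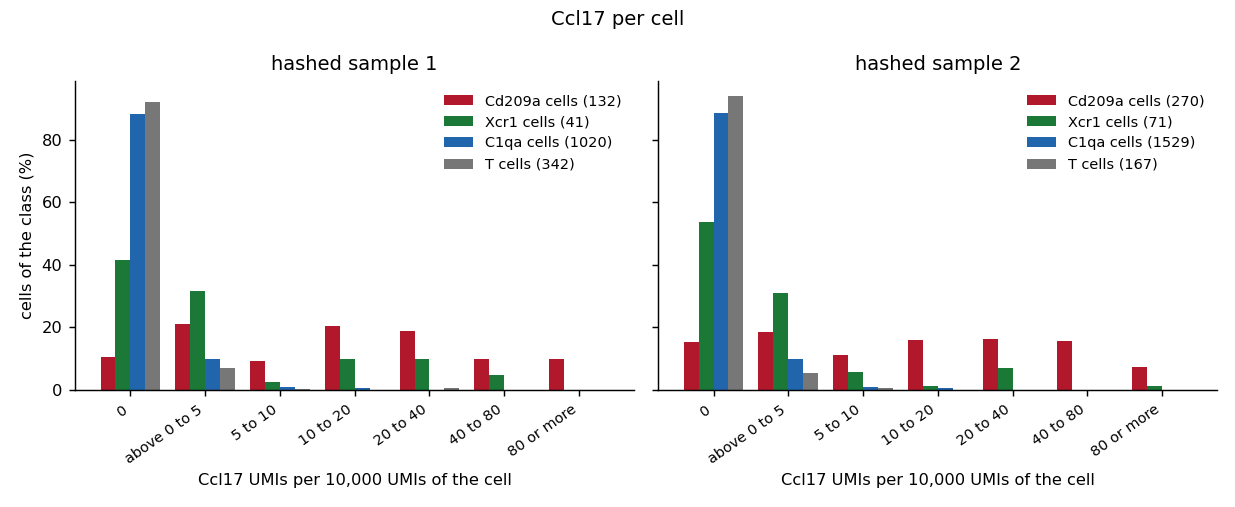
Percentage of the cells of a class (y axis) by Ccl17 level in UMIs per 10,000 UMIs of the cell (x axis, unequal bins), in hashed sample 1 (left) and 2 (right), with the number of cells of each class in brackets. C1qa and T cells gather at 0, at 88.1% and 92.1% in hashed sample 1, while Cd209a cells spread over all bins.

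The stretch before the start of Ccl17 is shown because it led the ranking of genes higher in members than in C1qa cells. Its 250 bases lie at chr8:94810203-94810452 on the plus strand (GRCm38.p6), before a start that lies inside the annotated gene, and the capitals mark matches to motifs of STAT factors, searched on both strands: first TTC, any 4 bases and GAA, then TTC, any 3 bases and GAA.
Ccl17: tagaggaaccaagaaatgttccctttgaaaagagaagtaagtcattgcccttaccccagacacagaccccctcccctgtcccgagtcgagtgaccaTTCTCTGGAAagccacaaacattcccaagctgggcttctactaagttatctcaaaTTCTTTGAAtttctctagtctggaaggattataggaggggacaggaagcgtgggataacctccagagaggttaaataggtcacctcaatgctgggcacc
The first motif is found in 6.95% and the other in 8.30% of the 32851 promoter windows. The matches lie 154 to 145 and 99 to 91 bases before the start.

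Members with and without a Ccl17 UMI after thinning, 97 and 35 cells in hashed sample 1 and 191 and 79 in hashed sample 2, were compared on thinned counts. Of 2548 genes measured, 48 (1.88%) were higher and 79 (3.1%) lower in members with Ccl17. Another random thinning called 7 of those 48 and 12 of those 79 again, so most single genes of this comparison depend on the draw. Ccl22 gave 11 UMIs against 0, and 21 against 1, from sides of unequal size. Scaled, this was 56.7 against 0 CPM and 55.0 against 6.33 CPM. At full depth, a single member held 20 of the 49 Ccl22 UMIs in hashed sample 1, and a single member 28 of 114 in hashed sample 2. Hpgd, which breaks down prostaglandins, stood at 20.6 CPM with and 100 CPM without Ccl17, and at 44.5 and 177 CPM in hashed sample 2 (4 and 7 UMIs, then 17 and 28), and was lower under all 3 alternatives. Lyz2, a myeloid lysozyme, stood at 2062 against 4157 CPM and 2280.1 against 3835 CPM, but did not pass the fold rule without thinning. Of 10 resident macrophage genes measured 4 were lower with Ccl17, among them C1qb, Csf1r and Trem2, and none higher. This count rests on a single thinning and was not repeated under the alternatives.

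Members with more Cd209a also held more H2-DMb2, at 235, 280 and 360 CPM for 2, for 3 to 5 and for at least 6 UMIs of Cd209a in hashed sample 1, and at 234, 388 and 430 CPM in hashed sample 2. Mgl2 was likewise higher at each step, at 1964, 2261 and 2319 CPM and at 2555, 2835 and 3365 CPM. Irf4 was lower at each step, at 76.1, 51.8 and 41.2 CPM and at 105, 80.1 and 68.4 CPM. Ccl17 stood at 2905, 2504.5 and 3160 CPM and at 3197, 2792 and 2624 CPM. Cd209a chose the members, so these steps are a description. Median depth was 7697.5, 8577 and 9930.0 UMIs in these steps of hashed sample 1 and 9287, 8620.0 and 9978.5 UMIs in those of hashed sample 2. The part of depth in these values was not tested. Lyz2 was lower at each such step in hashed sample 2, at 5389, 2912 and 2025 CPM, and not in hashed sample 1, at 2680.2, 2382 and 2523 CPM. At full depth, 27 and 66 members held a UMI of Fcgr1. Apoe stood at 898 and 783 CPM in them and at 459.7 and 449 CPM in the others, and Ccl17 at 2441 and 1835 CPM against 2908 and 3099 CPM. Members with Fcgr1 were also deeper, at 9754 against 8567 UMIs and at 9836 against 9188. A single member held 119 of the 652 Apoe UMIs in hashed sample 1, and a single member 168 of 1367 in hashed sample 2. How far such cells carry the Apoe difference was not tested.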

How the data were processed

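Members, gene lists and comparisons were chosen with earlier results of these data known. The deposited values are counts of UMIs per gene and cell that the authors made with Cell Ranger 6.1.1, per the file headers, filtered to cells and assigned to a hashtag, with no normalization. Seurat 4.3.0, Cell Ranger 6.0 and mm10 are named in the submitters' processing notes. Cells with at least 500 gene UMIs, at least 200 genes and at most 10% mitochondrial UMIs were kept here. Doublets were not removed: Scrublet in scanpy 1.11.5 called 56 cells (0.848%), 1 of them a member.

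UMIs were summed per class and hashed sample and scaled to CPM. Log2 ratios used a pseudocount of 10 CPM, which shrinks those of low genes. A gene was measured at 50 CPM or more in either class, required of both hashed samples, and called at 1.5-fold the same way in both, leaving out the 6 genes of the rule. C1qa cells and Xcr1 cells shared 5 cells. Depth, given in the text, sets the counting intervals: Clopper-Pearson intervals were used for shares and exact conditional ones for count ratios, with a count of 0 read as 3 counts. UMIs of 1 cell are not independent of each other, and cells are not replicates.

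The genes named were the 12 with the highest and the 12 with the lowest mean log2 ratio among those called (6 and 6 for members with against without Ccl17), without the 6 genes of the rule, ribosomal, mitochondrial, T cell receptor, immunoglobulin, sex-linked and unnamed genes and with at most 4 per list, plus genes of the lists. Of the list genes 1, Clec7a, was not among the 32285 gene symbols. Sequences are from RefSeq, GRCm38.p6. No column of per-sample values was left unused. Alternatives covered the gates, filters, pseudocount, fold, scaling (TMM, edgeR 4.0.16, R 4.3.3), thinning and each hashed sample alone. Other tools were Python 3.11.15, numpy 2.4.6, pandas 2.3.3, scipy 1.17.1 and matplotlib 3.10.9. Some genes of the lists are counted but not reported here by name.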

Additional observations from a re-analysis of the deposited data

Results flagged for a closer look

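A hashtag that marks neither hashed sample gave 13 counts in 12 members of hashed sample 1 and 0 in members of hashed sample 2. Over all 3115 and 3486 filtered cells it gave 265 and 9 counts, so it was not particular to members. The tag belongs to no comparison above. No group of members held enough samples to look for a sample apart from the others.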

How the results depend on the processing

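Of the 402 members, hashed sample 1 alone held 132. Genes higher than in C1qa cells numbered 260, and 508 with no minimum CPM and 152 at a fold of 2. Genes lower than in C1qa cells numbered 375, and 240 with a pseudocount of 50 CPM, 580 when measured at 20 CPM, 732 with no minimum and 198 at a fold of 2. Against Xcr1 cells 314 genes were higher, and 503 in hashed sample 2 alone, 501 at 20 CPM, 682 with no minimum and 184 at a fold of 2. There 210 were lower, and 417 and 337 in hashed samples 1 and 2 alone, 133 with a pseudocount of 50 CPM, 386 at 20 CPM, 527 with no minimum and 105 at a fold of 2. With against without Ccl17, 48 genes were higher, and 79 in another thinning, 20 with a pseudocount of 50 CPM and 24 without thinning, and 79 were lower, and 16 with a pseudocount of 50 CPM and 45 without thinning. Smarcc2, at -1.33 on the log2 scale there, was at 0.12 without thinning. Thinned to 1000 in place of 2000 UMIs, members of both hashed samples together had Ccl17 in 61.7% in place of 71.6%, Klrd1 in 12.2% in place of 18.7% and H2-DMb2 in 28.6% in place of 48.0%. A looser minimum or fewer hashed samples lets more genes count, and a higher fold or pseudocount fewer. In all other cases the cause was not tested. Leaving out the settings that only change which genes are counted, 587 values of named genes stayed near those reported, by no more than the difference between hashed samples or the counting interval, 147 moved and 1 changed sign. The 41 and 71 Xcr1 cells limit what can be read from low genes. The gene-by-gene comparison of members with and without Fcgr1 was not run, since after thinning 3 and 15 members held a UMI of it. No paired analysis was possible because there is 1 GEO sample and no test was made.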

Other observations

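Members of the hashed samples also differed from each other. Of 2621 genes measured, 66 (2.52%) were at least 1.5-fold higher in hashed sample 2 and 25 (0.954%) in hashed sample 1. The genes given here were picked after their values were seen. Stmn1, a tubulin-binding gene of dividing cells, stood at 29.8 and 101 CPM, and Idi1, an enzyme of cholesterol synthesis, at 20.4 and 69.4 CPM. Cxcl2, a neutrophil-attracting chemokine, stood at 149.9 and 333 CPM. Among those higher in hashed sample 1, the cell cycle kinase gene Cdk6 stood at 73.2 and 33.5 CPM and the transcription factor gene Klf9 at 192 and 113 CPM. At least 5 UMIs of cell cycle genes were held by 2 of 132 members (1.52%) and 12 of 270 (4.44%), beside 7.32% and 11.3% of Xcr1 cells and 2.16% and 7.19% of C1qa cells.

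Single cells carried some class levels. Spp1, which encodes osteopontin, stood at 72.4 and 404 CPM, but 587 of the 1035 UMIs in hashed sample 2 lay in 1 member, without which it stood at 176 CPM. Retnla, a gene of alternatively activated macrophages, had 215 of its 218 UMIs in hashed sample 1 in 1 member. Lpl, which splits lipoprotein fat, had 58 of 81 UMIs in 1 member of hashed sample 1.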
